A study of Mus musculus with 6 samples.

Results

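The comparison of CBR-5884 with its solvent DMSO in mouse zygotes was described across every gene listed at 1 or more in 2 or more of the 4 libraries concerned, which left 11853 of the 36065 genes in the deposited table. These were 10734 protein-coding genes, 1033 pseudogenes and 86 others. RNA had been sequenced from wild-type 1-cell embryos cultured in vitro, with DMSO alone (the DMSO group, 2 libraries) or with CBR-5884 (the CBR group, 2 libraries). Another 2 libraries came from zygotes that received CBR-5884 and S-adenosylmethionine (CBR+SAM). Their values are given for a few of the genes described here. Whether S-adenosylmethionine reversed the changes was not tested. The labels call the libraries of a group replicates, and p-values therefore measure the spread between these libraries. Strain, sex, dose, time in culture and the number of embryos per library are not given in the sources used here. Values are abundances on a scale that divides by transcript length, and a log2 change is the CBR mean minus the DMSO mean of log2(value + 1).

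CBR-5884 is a small-molecule inhibitor of phosphoglycerate dehydrogenase (Phgdh), the enzyme that opens the synthesis of serine from a glycolytic intermediate. Serine gives its side-chain carbon to folate, and folate-bound carbon remethylates homocysteine to methionine, from which S-adenosylmethionine, the methyl donor of histone, DNA and RNA methyltransferases, is made. A zygote lives mainly on mRNA stored by the oocyte, part of which is degraded in the hours after fertilization, while a low level of transcription, the minor wave of genome activation, begins in its pronuclei. A change in the level of an mRNA in a zygote can therefore follow from its synthesis or from its decay, and an abundance table does not separate them.

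CBR and DMSO zygotes had closely similar transcriptomes. The log2 change was under 0.5 in size for 96.1% of the genes tested, and for 98.8% of the 5927 whose mean reached 10. The median change was -0.01, and 48.6% of genes had a positive change. For a gene at or above that mean, the 95% interval of the change extended by a median of 0.33 to either side. One gene, the processed pseudogene Gm6565, passed an adjusted p of 0.05 (limma, p-values adjusted by Benjamini-Hochberg across every gene), that is 0.00844% of genes. Before adjustment 534 genes (4.51%) had a p under 0.05, of which 207 were higher with CBR (1.75%) and 327 lower (2.76%). When every column was rescaled to the same total, that split became 135 higher and 432 lower, and removal of a trend with transcript length gave 266 and 271. The libraries of the groups did not overlap for 3901 genes (32.9%), with CBR higher in 15.8% of all genes and lower in 17.1%. From the spacing of low values, 1 fragment of a 1000-base transcript was worth 0.0407 to 0.0499 in the 4 libraries.

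Gm6565, the gene that passed, is a processed pseudogene of Ube2v2, which encodes a catalytically inactive ubiquitin-conjugating enzyme variant that works together with Ubc13. Its value was 87.6 and 85.04 in the DMSO libraries and 22.6 and 23.4 in the CBR libraries. Its log2 change of -1.86 (SE 0.10, adjusted p = 0.0391, limma with Benjamini-Hochberg adjustment) was larger than the spread between replicates, with -1.91 between the replicates numbered 1 and -1.82 between those numbered 2. The gene no longer passed without DMSO replicate 1, nor without CBR replicate 1 or 2, where the smallest adjusted p of any gene was 0.344 and 0.357 (limma with Benjamini-Hochberg adjustment). Gm6565 lies on chromosome 6 (mm10, chr6:100604683-100605120) and its 438 bases equal the whole coding sequence of Ube2v2, base for base. A further pseudogene, Gm6361 on chromosome 15, is identical to it over 435 bases. The same 90-base window of the 4 records is shown because reads from it cannot be assigned to any of the 3 identical records; the capitals mark the 2 positions that differ in the fourth, Gm11843. The windows are at chr6:100604888-100604977 (plus strand) for Gm6565, chr15:31446523-31446612 (minus) for Gm6361 and chr4:12131691-12131780 (minus) for Gm11843, and at transcript positions 255 to 344 of Ube2v2 (chr16:15552077-15595773, minus), inside its coding part. Sequences and positions are from mm10 with the GENCODE M21 annotation.
Gm6565: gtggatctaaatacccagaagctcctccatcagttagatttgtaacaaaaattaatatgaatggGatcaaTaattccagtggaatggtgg
Gm6361: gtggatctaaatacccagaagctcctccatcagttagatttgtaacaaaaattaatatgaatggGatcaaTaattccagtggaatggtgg
Ube2v2: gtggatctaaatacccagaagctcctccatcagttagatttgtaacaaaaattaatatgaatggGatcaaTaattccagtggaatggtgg
Gm11843: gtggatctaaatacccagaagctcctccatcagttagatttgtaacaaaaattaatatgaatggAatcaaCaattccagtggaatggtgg

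The identical record Gm6361 had the opposite values: 0.689 and 17.6 with DMSO, but 58.6 and 60.1 with CBR. Under CBR+SAM, Gm6565 stood at 3.66 and 101, and Gm6361 at 82.1 and 9.81. The low record of each library was thus accompanied by a high one of the same sequence. Ube2v2 itself had 70.02 and 68.7 with DMSO, against 58.5 and 60.1. Summed over the 4 records, the libraries had 158.6 and 172.2 with DMSO, against 139.7 and 143.6, a log2 change of -0.22. With all near-identical records summed, no gene passed (smallest adjusted p = 0.427, limma with Benjamini-Hochberg adjustment, with 503 genes at an unadjusted p under 0.05). The sum did not overlap between the groups, as for 32.9% of all genes.

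**Figure D1:**
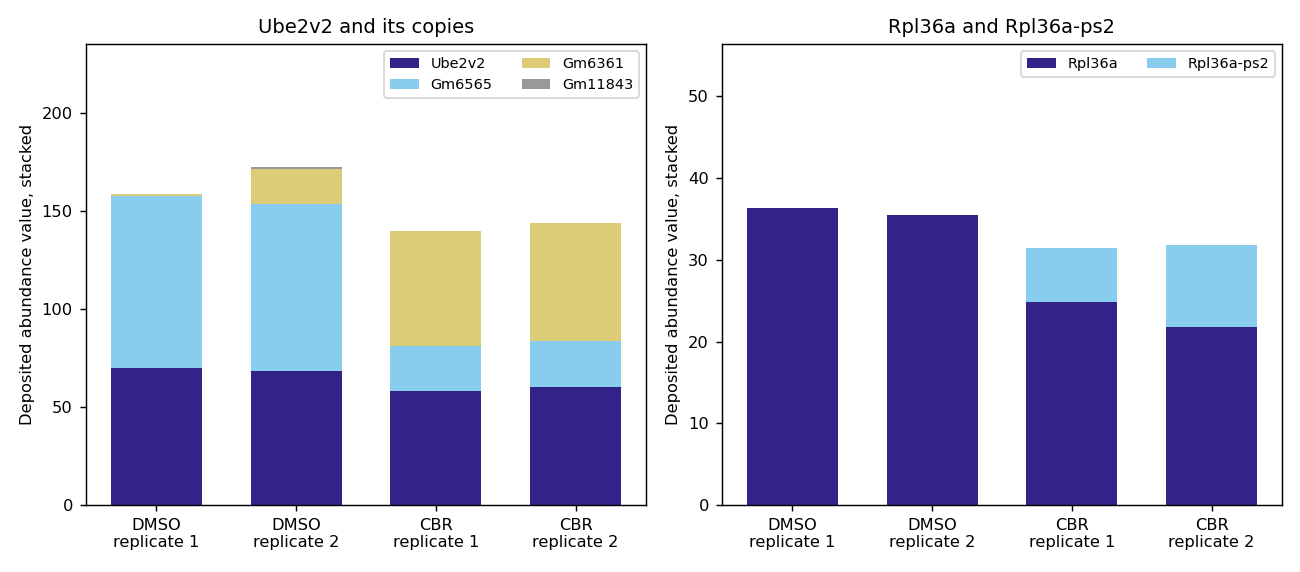
Deposited abundance (linear axis from 0) of near-identical records, stacked, in each of the 4 libraries: Ube2v2 with its pseudogenes (left) and Rpl36a with Rpl36a-ps2 (right). The Gm6565 segment is 87.6 and 85.04 in the DMSO libraries and 22.6 and 23.4 in the CBR libraries, the Gm6361 segment goes the other way, and the stacks end between 139.7 and 172.2.

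The same was seen for Rpl36a, a protein of the large ribosomal subunit. Its value was 36.3 and 35.5 with DMSO and 24.9 and 21.8 with CBR (log2 change -0.60, unadjusted p = 0.00321). Its pseudogene Rpl36a-ps2, whose 321 bases are contained in Rpl36a without a difference, was at or next to 0 with DMSO and had 6.495 and 9.9995 after CBR treatment. Their sum with 2 further copies was 36.5 and 35.7 against 31.6 and 31.997, which shrank the difference to -0.18. Among protein-coding genes with a near-identical record, 6.96% of 1294 had an unadjusted p under 0.05, against 3.49% of the 9440 without one. Among pseudogenes the shares were 12.8% of 585 and 7.14% of 448. Of the genes named further below, Phgdh, Mat2a, Mthfs, Oaz1, Hdac1, Mrpl22, Obox1, Zscan4d, Ybx1, Cdkn1a, Ddx18, Dppa3 and Gpx4 have such a record too, and their values are uncertain where the reads could have been divided differently.

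Among genes with no near-identical record, Gadd45g stood furthest from the spread of its replicates. Gadd45g (chr13:51846678-51848468) encodes a small stress-induced protein of the growth arrest and DNA damage family. It had 6.63 and 7.67 with DMSO, against 1.17 and 0.766, so that every CBR library lay far under every DMSO library. The log2 change was -2.05 (SE 0.20, 95% interval -2.55 to -1.55), with -1.81 between the replicates numbered 1 and -2.30 between those numbered 2. It did not pass the threshold (adjusted p = 0.217, limma with Benjamini-Hochberg adjustment), but did so with the replicate number as a block (adjusted p = 0.0439). The spacing of low values puts these levels at about 162 and 152 fragments with DMSO and about 25.3 and 19.03 with CBR; the gene has several transcripts, so these numbers are approximate. In the CBR+SAM libraries Gadd45g had 7.70 and 6.45. Its relative Gadd45b was lower too, with 1.21 and 1.28 against 0.309 and 0.522 (log2 change -0.67, unadjusted p = 0.0186).

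The low genes with a mean between 2 and 10 that had the largest changes included an enzyme of histone methylation. Ehmt2 (G9a), which methylates lysine 9 of histone H3, had 1.70 and 1.43 with DMSO and 4.05 and 3.62 with CBR. Its log2 change was 0.91 (SE 0.18, adjusted p = 0.977, limma with Benjamini-Hochberg adjustment). Carf, a calcium-responsive transcription factor, had 1.81 and 1.95 against 4.67 and 4.32. The vomeronasal receptor gene Vmn1r1 had 2.28 and 1.38 against 5.13 and 3.57, and Tmigd3 had 1.52 and 0.591 against 3.69 and 2.50. These 4 had a log2 change between 0.91 and 1.02. In the other direction, Ube2j1, a ubiquitin-conjugating enzyme of the endoplasmic reticulum, had 6.18 and 5.76 with DMSO and 2.96 and 2.97 with CBR (log2 change -0.81). Prnp, the prion protein gene, had 4.99 and 2.43 against 1.20 and 1.97 (log2 change -0.83). As untransformed values, its DMSO libraries lay further apart from each other than the group means did. Defa17 and Tmsb15l, from the defensin and thymosin families, were also lower, but each has a near-identical record. With those summed, their changes shrank from -2.02 to -0.14 and from -0.79 to -0.27. A short 105-base record named Ddit3 was listed at 0 for DMSO replicates 1 and 2 and had 8.37 and 15.7 after CBR treatment. Together with the full-length Ddit3 record, which encodes the stress transcription factor CHOP, it made 46.9 and 46.3 against 47.0 and 57.8.

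Of the 12 protein-coding genes with the smallest unadjusted p among those higher with CBR, the one with the largest change was the zinc finger gene Zfp236, with 14.3 and 15.4 in the DMSO libraries and 39.4 and 29.97 in the CBR libraries. Its log2 change was 1.16 (SE 0.16, adjusted p = 0.647, limma with Benjamini-Hochberg adjustment). Pbrm1 (chr14:31019138-31121592), a bromodomain subunit of the PBAF chromatin remodelling complex, had 34.5 and 33.4 against 49.999 and 48.1, a change of 0.52 (SE 0.11). Both pairs of libraries gave the same size, 0.52 and 0.51. The olfactory receptor gene Olfr655 had 89.5 and 79.8 against 123 and 120.2 (0.52), and Tex14, a protein of the bridges between germ cells, had 18.3 and 18.5 against 25.1 and 28.7 (0.52). The change was 0.43 for Asap1, a GTPase-activating protein for Arf, 0.34 for the RNA helicase gene Ddx24 and 0.63 for the protease inhibitor gene Spink2. Ddx24 was the most abundant of these, with 245 and 264 against 322 and 321. None of these 7 had a near-identical record.

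The other 5 did. The oocyte homeobox gene Obox2 had 3627 and 3749 with DMSO and 4608 and 4708 with CBR (0.34); summed with its relatives Obox1 and Obox5 the difference was 0.24. Pign, an enzyme of GPI anchor synthesis, had 64.4 and 53.1 against 93.5 and 97.0 (0.69), and 0.56 with 3 pseudogenes added. Lbhd1 (8.61 and 11.7 against 19.3 and 17.7) overlaps a second gene, and its difference of 0.82 shrank to 0.18 in their sum. Asdurf, a small reading frame upstream in the Asnsd1 transcript, had 55.1 and 55.4 against 75.8 and 74.1 (0.43), and 0.33 in the sum with Asnsd1. The twelfth gene, mt-Nd4l, is described with the mitochondrial genes. Apart from Zfp236, these genes each had an adjusted p of 0.977 (limma with Benjamini-Hochberg adjustment).

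Of the 12 genes lower with CBR, Kdm2a had the smallest unadjusted p. Kdm2a (chr19:4314419-4398285) encodes a CpG island-binding demethylase of lysine 36 of histone H3. It had 72.5 and 76.3 with DMSO and 49.1 and 53.2 with CBR, a log2 change of -0.53 (SE 0.11, 95% interval -0.79 to -0.27, unadjusted p = 0.0027, adjusted p = 0.977, limma with Benjamini-Hochberg adjustment). Tbc1d14, a regulator of autophagy, had 464 and 476 against 365 and 375 (-0.35). Ube2t, the ubiquitin-conjugating enzyme of the Fanconi anaemia pathway, had 426 and 458 against 342 and 350.0 (-0.35). Cpsf4l, a relative of a subunit of the mRNA cleavage and polyadenylation complex, had 106 and 112 against 85.3 and 82.9 (-0.37), and Fam118b had 45.1 and 47.1 against 31.3 and 35.9 (-0.45). These 5 genes had no near-identical record. In each the lower DMSO library lay above the higher CBR library because the genes were chosen so. The same held for 17.1% of all genes.

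Among the remaining 7, the Sm-like RNA-binding protein gene Lsm6 had 138 and 133 against 104 and 106 (-0.37), and a pseudogene at 0 in these 4 libraries. Polr2k, a small subunit shared by the nuclear RNA polymerases, had 111 and 134 against 85.7 and 82.8 (-0.53); the sum with its pseudogenes kept that difference, at 221 and 224 against 167 and 144 (-0.52). The sums were less far apart than the single records for Atp5g2, the c subunit of ATP synthase (-0.73 alone, -0.19 in the sum), for the small-subunit ribosomal protein gene Rps6 (-0.46 and -0.28) and for Usmg5, a small subunit of ATP synthase (-0.34 and -0.23). Rpl36a is described above, and mt-Nd2 below.

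**Figure D2:**
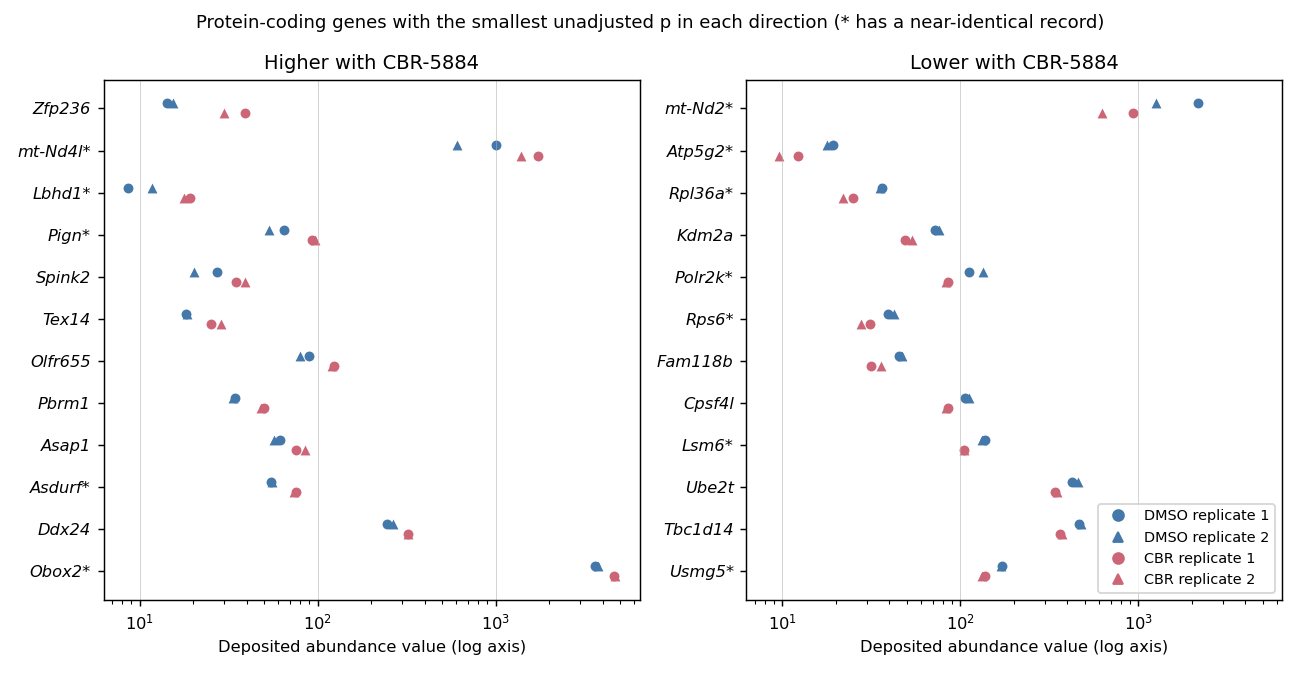
Deposited abundance (log axis) in the 4 libraries for the 12 protein-coding genes per direction with the smallest unadjusted p, a mean of at least 10, separate groups and the same direction in both pairs; blue is DMSO and red CBR, circles are replicate 1 and triangles replicate 2, and an asterisk marks a near-identical record. The colours do not overlap in any row because the genes were chosen so, and the gap is widest for Zfp236, with 14.3 and 15.4 against 39.4 and 29.97.

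Libraries with the same replicate number were also read as pairs, CBR replicate 1 against DMSO replicate 1 and CBR replicate 2 against DMSO replicate 2; the pairs share no library. The change had the same sign in both pairs for 56.2% of genes, higher in both for 27.1% and lower in both for 29.1%. Across genes, which are not independent replicates, the changes correlated weakly (Pearson's r = 0.13, Spearman's rho = 0.16 over 11853 genes). The likeness depended on abundance. It was r = 0.01 for genes with a mean of 1 to 3, r = 0.40 for those with a mean of 30 to 100 and r = 0.26 above that. With a mean of at least 10, 60.1% of genes had the same sign. A change of at least 0.5 in the same direction in both pairs was found for 62 genes higher and 102 lower, while 102 had changes of that size in opposite directions. With a mean of at least 10 these numbers were 15, 20 and 8. With the numbers crossed, the same sign was found for 44.2% of genes (r = -0.30), so the description depends on how the libraries are paired.

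**Figure D3:**
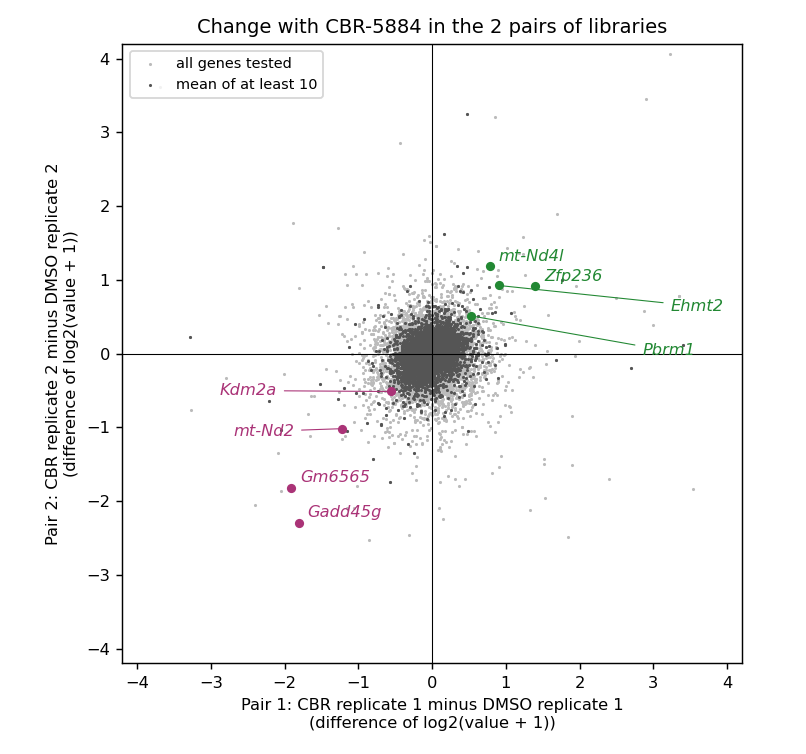
Change in pair 1 (horizontal) against change in pair 2 (vertical), each a difference of log2(value + 1), for all 11853 genes (grey; 6 lie outside the range shown) and for those with a mean of at least 10 (dark). Most genes form a cloud around 0, with a correlation of r = 0.13; Gm6565 and Gadd45g lie at the lower left, and Zfp236, Ehmt2 and mt-Nd4l at the upper right.

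No gene of the pathway that CBR-5884 acts on passed the test. Of 23 genes of serine and glycine metabolism 13 were tested; 4 were higher and 6 lower in both pairs (30.8% and 46.2%, against 27.1% and 29.1% of all genes), and none had an unadjusted p under 0.05. The groups did not overlap for 1 gene higher and 2 lower, as for 15.8% and 17.1% of all genes. Phgdh itself, the target, had 4.34 and 5.95 with DMSO and 4.81 and 4.28 with CBR (log2 change -0.14, 95% interval -0.63 to 0.36). Psph, the last enzyme of serine synthesis, had 4.78 and 6.03 against 4.90 and 4.41. The groups overlapped for both genes. Of the hydroxymethyltransferases that pass the serine carbon to folate, mitochondrial Shmt2 had 13.3 and 13.1 against 14.9 and 16.2 (0.22), and cytosolic Shmt1 8.48 and 3.07 against 11.2 and 4.05, a difference under the spread of its replicates. Cth, which makes cysteine from cystathionine, had 155 and 182 against 176 and 229. The 13 changes lay between -0.22 and 0.34, but the intervals are wider, from -0.63 to 0.28 for Psph and from -1.02 to 1.69 for Shmt1.

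Of 20 genes of the folate cycle 12 were tested, with a median change of 0.01 and a range from -0.25 (Mthfd1) to 0.18 (Mthfs). Mthfd2, the mitochondrial enzyme that oxidizes methylene-tetrahydrofolate, had 113 and 114 against 126 and 123 (0.13). Of 28 genes of the methionine cycle, of polyamine synthesis and of S-adenosylmethionine handling 22 were tested. Their median change was -0.01. Mat2a, which makes S-adenosylmethionine, had 46.5 and 45.5 against 38.2 and 47.2, with overlapping groups. An unadjusted p under 0.05 was reached by Oaz1, the antizyme that restrains polyamine synthesis (591 and 574 against 702 and 699; 0.27), and by Ahcyl2, a relative of S-adenosylhomocysteine hydrolase (9.50 and 10.3 against 7.17 and 6.89; -0.44). That is 2 of 22 genes beside 4.51% of all genes.

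Genes of histone methylation had no member that passed the test, and 3 of their lists had more members higher than lower in both pairs (27.1% and 29.1% of all genes). Of all genes 4.51% had an unadjusted p under 0.05. Of 22 genes of H3K9 methylation tested, Ehmt2 alone had an unadjusted p under 0.05, and 8 were higher and 4 lower in both pairs (36.4% and 18.2%). Trim28, the corepressor that recruits H3K9 methyltransferases, had 19.9 and 25.7 against 33.3 and 25.8. For H3K27 methylation it was Jarid2, an accessory subunit of PRC2 (32.4 and 31.3 against 39.9 and 38.9; 0.30), with 10 of 25 genes higher and 4 lower in both pairs (40.0% and 16.0%); the median of that list was 0.03, and -0.01 with every column rescaled to the same total. For H3K36, H3K79 and H4K20 methylation it was Kdm2a, of 15 tested. In that list 5 were higher and 4 lower in both pairs (33.3% and 26.7%). Its median of 0.09 was -0.06 without CBR replicate 1. The H3K36 methyltransferase gene Nsd1 had 61.8 and 54.3 against 68.4 and 73.1 (0.28). None of the 21 genes of H3K4 methylation had an unadjusted p under 0.05; the demethylase gene Kdm5a had 947 and 964 against 1151 and 1067 (0.21), and Kdm5b had 1.86 and 2.33 against 2.99 and 1.73. Among 8 arginine methyltransferases and their partners, Prmt5, which forms symmetric dimethylarginine, had 2.76 and 3.35 against 4.31 and 5.58 (0.55, unadjusted p = 0.0355). Of these 8, 4 were higher and 1 lower in both pairs, with a median of 0.07 that was -0.08 without DMSO replicate 1. Of 23 genes of DNA methylation and demethylation, 9 were higher and 8 lower in both pairs. An unadjusted p under 0.05 was found for 3 of them, beside 4.51% of all genes. These were Gadd45g, Gadd45b and, named after its values were seen, Hells, a remodeller needed for DNA methylation (121 and 133 against 154 and 158, a change of 0.30). The maintenance enzyme gene Dnmt1 had 120.2 and 149 against 124 and 158, and Tet3, the dioxygenase that acts in the male pronucleus, had 45.9 and 47.4 against 48.4 and 48.8 (0.06, 95% interval -0.19 to 0.31).

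Subunits of chromatin remodelling complexes were more often higher than lower. Of 54 tested, 26 were higher and 9 lower in both pairs (48.1% and 16.7%, against 27.1% and 29.1% of all genes), with a median change of 0.09. Besides Pbrm1, an unadjusted p under 0.05 was found for Gatad2a, a subunit of the NuRD complex (62.5 and 61.4 against 77.5 and 77.2; 0.31), and, named after their values were seen, for Brd9 (0.36) and the deacetylase Hdac1 (-0.29). That made 3 genes higher and 1 lower at this p, beside 1.75% and 2.76% of all genes. Transcripts of the list are long, with a median of 6035 bases. Among those of 4000 to 8000 bases 15 of 22 were higher in both pairs (68.2%), against 31.9% of other protein-coding genes of that length, and among those of 2000 to 4000 bases 4 of 15 were (26.7%), against 27.2%. No gene of the list had an adjusted p under 0.05, and the median lay between 0.05 and 0.12 under the alternative settings. Splicing factors (38 of 85 higher in both pairs, 23 lower), histone chaperones and variants (17 and 9 of 32) and genes of meiotic exit and mitosis (27 and 11 of 65) had medians of 0.05 to 0.06, and of 0.02 or less with every column rescaled to the same total. The median for splicing factors had the opposite sign, at -0.03, without DMSO replicate 1. Examples are Srrm2, a splicing scaffold of nuclear speckles (104 and 126 against 162 and 143; 0.40), Prpf6 of the U4/U6-U5 snRNP (132 and 129 against 162 and 155; 0.28) and securin, Pttg1 (10836 and 10724 against 12423 and 12996; 0.24).

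Nuclear genes of the respiratory chain and genes of ribosomal proteins were more often lower. Of 81 nuclear genes for subunits of the respiratory chain and ATP synthase, 50 were lower and 9 higher in both pairs (61.7% and 11.1%, against 29.1% and 27.1% of all genes). The median change was -0.16, with -0.10 in pair 1 and -0.19 in pair 2. An unadjusted p under 0.05 was found for 8, all lower, beside 2.76% of all genes in that direction. Every complex had more members lower than higher in both pairs: 20 against 4 of 36 for complex I, 3 against 0 of 4 for complex II, 6 against 0 of 8 for complex III, 8 against 3 of 14 for complex IV and 12 against 2 of 18 for ATP synthase; 1 further member, in none of these, was lower. Sdhd of complex II had 79.9 in both DMSO libraries and 69.8 and 65.2 with CBR (-0.24). The 66 members with no near-identical record had a median of -0.15. Without DMSO replicate 2 the median of the list was -0.05, and without DMSO replicate 1 it was -0.24, so its size turns on that group.

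Cytosolic ribosomal protein genes had 41 of 80 lower and 6 higher in both pairs, with a median of -0.17. Of the small subunit 13 of 30 were lower and of the large subunit 28 of 48. Most, 65 of the 80, had a near-identical record; the other 15 had a median of -0.12. Without DMSO replicate 2 the median was -0.10. Translation initiation and elongation factors had 14 of 49 members higher and 9 lower in both pairs, with a median of -0.02. The summed value of all cytosolic ribosomal proteins did not separate the groups, with 6638 and 6702 against 6763 and 6456. Of 76 mitochondrial ribosomal proteins 35 were lower and 10 higher in both pairs, with a median of -0.08; it was -0.03 without CBR replicate 1 and -0.12 without DMSO replicate 1. Examples are Mrpl22 (43.8 and 42.7 against 33.9 and 33.9; -0.34) and, in the other direction, Mrpl45 (25.7 and 25.5 against 31.9 and 33.2; 0.34). Zinc finger genes named Zfp had 110 of 276 lower and 46 higher in both pairs (39.9% and 16.7%), with a median of -0.05. Their transcripts have a median length of 3522.5 bases. Zfp691 had 3.63 and 4.34 against 1.67 and 2.18 (-0.77). No member of these 4 lists had an adjusted p under 0.05; the smallest was 0.647, for Zfp236.

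Transcript length moved with the change. Across 10734 protein-coding genes, which are not independent replicates, Spearman's rho between length and change was 0.14, with 0.14 in pair 1 and 0.07 in pair 2. It was of similar size between replicates, at 0.07 for DMSO replicate 1 minus 2 and 0.13 for CBR replicate 1 minus 2. Genes of 500 to 1000 bases had a median change of -0.09, and 42.7% were lower in both pairs; at 8000 bases or more the median was 0.03 and the share 21.1%. Respiratory chain and ribosomal protein transcripts are short, with medians of 1046 and 1054 bases. Among genes of 500 to 1000 bases, 25 of 36 respiratory chain genes were lower in both pairs (69.4%), against 40.8% of other protein-coding genes, and the medians were -0.18 and -0.09. Among those of 1000 to 2000 bases it was 16 of 26 (61.5%) against 34.3%. For cytosolic ribosomal proteins the shares were 15 of 31 (48.4%) against 42.4% and 17 of 31 (54.8%) against 34.4%. With the length trend removed, the medians of these lists were -0.12 for the respiratory chain and -0.12 for the ribosomal proteins. The part of length in these differences was not tested further.

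**Figure D4:**
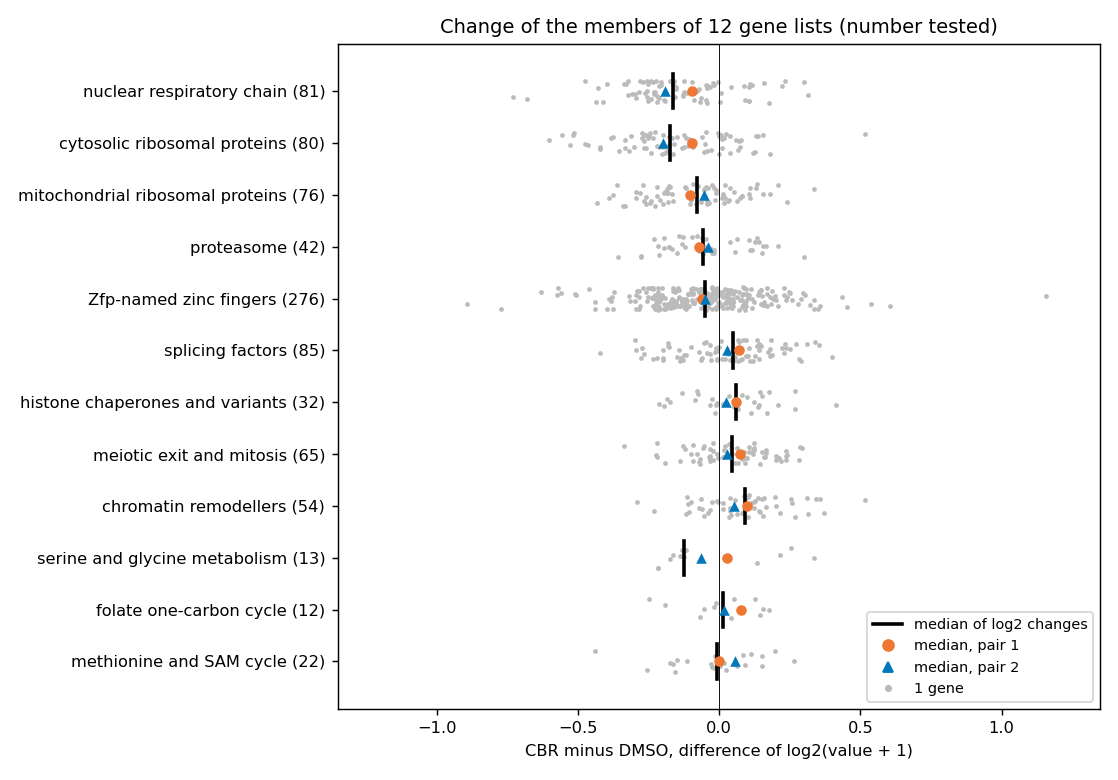
Log2 change with CBR-5884 of the members tested in 12 gene lists (grey points; numbers tested in parentheses), with the median of the list (black bar) and its median in pair 1 (orange circle) and pair 2 (blue triangle). The bars of the respiratory chain and cytosolic ribosomal proteins lie at -0.16 and -0.17 and that of the chromatin remodellers at 0.09, while single members spread on both sides of 0.

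The 13 protein-coding genes of the mitochondrial genome varied strongly between replicates. Their summed value was 60680 and 36596 with DMSO and 59976 and 44644 with CBR, which overlap. Within a library, however, the shares of some of them in that sum were close in replicates and apart between the groups. The complex I gene mt-Nd2 made up 3.58% and 3.45% of the summed value with DMSO and 1.547% and 1.39% with CBR. The complex I gene mt-Nd4l made up 1.65% and 1.66% against 2.87% and 3.10%. In the CBR+SAM libraries mt-Nd2 was at 3.93% and 2.94% and mt-Nd4l at 1.81% and 1.43%, on the side of the DMSO libraries. Not every named gene was on that side. With CBR+SAM, Ehmt2 had values of 3.16 and 2.95 and Cpsf4l of 87.2 and 88.3, nearer to the CBR libraries. Some genes differed little: mt-Nd4 was at 2.74% and 2.76% against 2.61% and 2.77%, and mt-Co1 at 4.41% and 4.41% against 4.18% and 4.61%. Smaller differences without overlap were found for mt-Co3 (15.3% and 16.2% against 17.9% and 20.02%), mt-Co2 (14.7% and 14.5% against 11.9% and 12.05%), mt-Cytb (7.31% and 9.82% against 5.23% and 6.51%) and mt-Nd3 (2.26% and 1.97% against 1.31% and 1.44%), and for mt-Atp6 and mt-Nd1. Shares of a sum are not independent of each other, and a permutation of 2 against 2 libraries cannot give a p under 0.333. On the values themselves the groups did not overlap for 1 of the 13 genes higher and 2 lower, beside 15.8% and 17.1% of all genes. For shares of a sum no matching figure over all genes was made.

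As values, mt-Nd2 had 2173 and 1261 with DMSO and 928 and 622 with CBR (log2 change -1.12, SE 0.30, unadjusted p = 0.0108), and mt-Nd4l had 1001 and 607 against 1722 and 1383 (0.98, SE 0.25). Both had an adjusted p of 0.977 in the comparison without pairs (limma with Benjamini-Hochberg adjustment), and of 0.00667 and 0.0485 with the replicate number as a block. A nuclear copy of mitochondrial DNA on chromosome 1 holds records of the same or nearly the same sequence as mt-Nd3, mt-Co2 and their neighbours. Its record Gm28438 had 974 and 765 with DMSO and 437 and 370.4 with CBR and differs from mt-Nd3 in 1 of 345 bases, shown in capitals in the first 90 bases of each because that base alone can assign a read.
Gm28438 (chr1:24613030-24613119, minus strand): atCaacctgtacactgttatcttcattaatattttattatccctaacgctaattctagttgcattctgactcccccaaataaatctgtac
mt-Nd3 (chrM:9459-9548, plus strand): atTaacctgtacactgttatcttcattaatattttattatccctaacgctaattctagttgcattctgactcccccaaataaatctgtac
The sum of mt-Nd3 and Gm28438 was 2344 and 1487 with DMSO and 1221.5 and 1015 with CBR, a difference of -0.75. The near-identical record of mt-Nd2 stood between 0 and 0.50 in these libraries, and the sum of both gave the same change, -1.12. All records of the chromosome 1 copy are left out of the shares above. Besides Gm28438, Gm28437 had 979 and 839 with DMSO and 211 and 537 with CBR, and Gm28661 had 4.19 and 5.55 against 0.253 and 0.807. The 681 bases of Gm28661 are contained in mt-Co2 without a difference. Its sum with its near-identical records, mt-Co2 among them, changed by -0.15. The groups overlapped for Gm10925 and Gm29216. The division of reads between the copy and the mitochondrial genes was not tested.

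**Figure D5:**
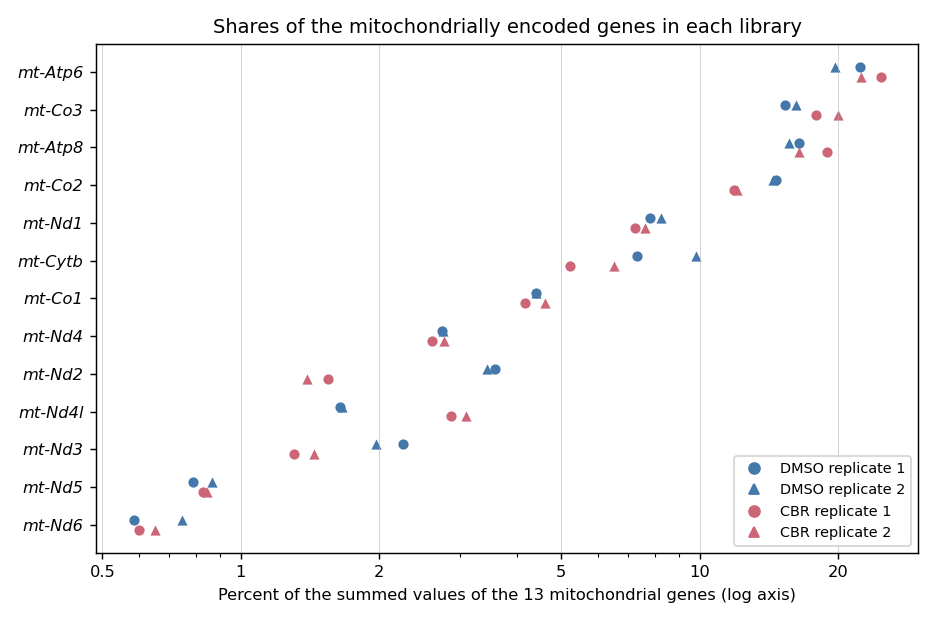
Share of each mitochondrially encoded gene in the summed value of the 13 genes (percent, log axis) in the 4 libraries; blue is DMSO, red CBR, circles replicate 1 and triangles replicate 2. The red marks of mt-Nd2 lie at 1.547% and 1.39%, to the left of the blue at 3.58% and 3.45%, and those of mt-Nd4l to the right, while mt-Nd4 and mt-Co1 overlap.

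Transcripts of the minor wave of genome activation showed no common direction. Of 46 listed genes 24 were tested, with 6 higher and 7 lower in both pairs (25% and 29.2%, against 27.1% and 29.1% of all genes). The median was -0.05, and its sign turned without DMSO replicate 2 (0.04) or CBR replicate 1 (0.09). Besides Obox2, Ubtfl1, a relative of the ribosomal gene activator UBF, had 0.382 and 0.441 against 1.24 and 1.44 (0.73, unadjusted p = 0.0116). In the other direction Arg2, the mitochondrial arginase, had 321 and 329 against 260.4 and 271 (-0.29, unadjusted p = 0.0163); it was named after its values were seen. Obox1 had 5421 and 5608 against 6130.1 and 6723 (0.22), and Zscan4d, of the cluster expressed in 2-cell embryos, 7.41 and 10.9 against 7.51 and 5.90. Of 68 oocyte and maternal effect genes 21 were higher and 20 lower in both pairs (30.9% and 29.4%), and the median was -0.01. Bcl2l10, an apoptosis regulator abundant in oocytes, had 4490 and 4177 against 5302 and 4936 (0.24, unadjusted p = 0.0445). Khdc3, of the subcortical maternal complex, had 31.2 and 36.5 against 28.3 and 24.5. Btg4, which recruits the CCR4-NOT deadenylase to maternal mRNA, had 5437 and 6222 against 5475 and 6400.1 and thus differed more between replicates than between groups. The CCR4-NOT subunit gene Cnot3 had 221 and 210.3 against 276 and 251 (0.29), and the mRNA-packaging protein gene Ybx1 had 219 and 207 against 258 and 245 (0.24).

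Apart from Gadd45g and the short Ddit3 record, both with the replicate block, no gene of stress or of genome integrity passed the test. That Ddit3 record had an adjusted p of 0.00667 with the block (limma with Benjamini-Hochberg adjustment). Summed with the full-length Ddit3 record, its log2 change shrank from 3.65 to 0.16. Of 21 genes of the integrated stress response 6 were higher and 7 lower in both pairs (28.6% and 33.3%, against 27.1% and 29.1% of all genes). Atf4, its transcription factor, had 26.4 and 36.2 against 25.5 and 30.1. Ppp1r15a, the phosphatase subunit that ends the response, had 15.3 and 12.2 against 17.9 and 19.03 (0.40, unadjusted p = 0.0434). The p53 gene Trp53 had 25.6 and 27.4 against 24.1 and 34.8, its target Mdm2 39.9 and 49.3 against 53.6 and 50.5, and Cdkn1a, another target, 1.21 and 1.04 against 1.25 and 1.19. Gm11032, a record nearly identical to part of Cdkn1a and of Kif15, had 14.0 and 17.2 against 2.63 and 7.89, and was chosen after its values were seen. Summed with it, Cdkn1a had 15.2 and 18.2 against 3.87 and 9.08, which moved its change from 0.06 to -1.33. Of 68 genes of DNA damage response and repair 26 were higher and 16 lower in both pairs (38.2% and 23.5%). Brca2, of homologous recombination, had 84.7 and 78.8 against 102.4 and 98.1 (0.29, unadjusted p = 0.0277), the checkpoint kinase gene Chek1 had 1202 and 1216 against 1273 and 1342 (0.11), and H2afx, the histone that is phosphorylated at breaks, had 3.98 and 2.89 against 5.71 and 3.06. Of 43 replication genes Gins2, of the replicative helicase, had 64.0 and 69.9 against 47.6 and 53.5 (-0.40, unadjusted p = 0.0148). Of 81 genes of ribosome biogenesis 5 had an unadjusted p under 0.05, all higher, beside 1.75% of all genes in that direction. Rrp9, a subunit of the U3 snoRNP, had 19.2 and 19.4 against 25.3 and 26.3 (0.40), and the nucleolar helicase gene Ddx18 had 258 and 255 against 310.0 and 316 (0.29).

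The libraries carried the markers of the labelled cells. The 18 markers of oocytes and zygotes summed to 44024 and 43022 with DMSO and 46692 and 47704 with CBR, with Omt2b at 15562 and 13099 against 16917 and 15990 and Dppa3 at 13565 and 13631 against 14436 and 15271. The most abundant members carried the sum: 12 of the 18 had a negative change, and the median of the list was -0.07. The 30 markers of cumulus cells, which surround the oocyte, summed to 545 and 521 against 593 and 594. Most of it was Serpine2 (524 and 496 against 567 and 568). Next came Cyp19a1 (8.14 and 12.3 against 12.8 and 11.8) and Nr5a2 (9.40 and 10.1 against 8.92 and 9.76). Foxl2, Inha, Ptx3, Timp1, Hsd17b1 and Ereg were listed at 0 in all 4. Sperm markers summed to between 46.6 and 52.8 in the 4 libraries, most of it Odf2 (26.003 to 32.5) and Prm2 (12.3 to 14.7), with Prm1, Tnp1 and Smcp at 0, oviduct markers to between 16.6 and 19.4, and blood markers to between 1.93 and 3.32. In a bulk sample fewer cells of a type and less RNA per cell cannot be told apart.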

How the data were processed

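RNA was measured in 6 libraries of mouse 1-cell embryos, 2 per group, of which the 4 of DMSO and CBR were compared. Per the labels' protocols, cDNA came from SMART-Seq v4 (Ultra-Low-Input), and the libraries from Nextera XT; no strand marking or molecular identifiers are described. The authors deposited 1 abundance signal per gene and library in a table named for kallisto. Kallisto, fastp, DESeq2 and mm10 are listed, without versions or roles, per the submitters' processing notes. The 4 columns sum to between 956209 and 1004406, close to but not at the fixed total of TPM values; the reason is not given in the sources used here. Read counts were not used here, and depth is known only from the spacing of low values (81.9% to 84.3% of those examined lay within 0.1 of a whole number of fragments).

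Of 36065 identifiers 35768 matched a symbol in GENCODE M21. Values were taken as log2(value + 1), which understates changes of low genes, and fitted with limma 3.58.1 in R 4.3.3 (mean-variance trend, 2 residual degrees of freedom, Benjamini-Hochberg threshold 0.05), on the 4 libraries without a replicate block. The fit was tested on simulated data. Near-identical records were searched with blastn 2.17.0 (at least 95% identity over 80% of the shorter transcript) and summed at 98%. The members and gene lists were chosen with earlier results of these data known. Named genes were called genes, the 12 protein-coding genes per direction with the smallest p and a mean of at least 10, the 5 per direction with the largest change and a mean of 2 to 10, 2 per list and a fixed set; others are stated as chosen afterwards. Alternatives were scalings, filters, the pseudocount, the trend, protein-coding genes alone, a replicate block, all 6 libraries, each library left out (the lone library of a group is then assumed to vary like the other group), and, added after seeing the data, summed records, removal of a lowess trend with length and genes with no near-identical record.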

Additional observations from a re-analysis of the deposited data

How the results depend on the processing

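The number of genes with an adjusted p under 0.05 (limma, Benjamini-Hochberg) was 0 with all 6 libraries, with no filter, without the variance trend, with protein-coding genes alone and with near-identical records summed, where 503 genes had an unadjusted p under 0.05. It was 0 to 6 when a library was left out: 2 without DMSO replicate 1, 6 without DMSO replicate 2 and 0 without either CBR library (446 and 493 at an unadjusted p under 0.05). The latter number was 515 without the trend and 467 with protein-coding genes alone. Genes at an unadjusted p under 0.05 numbered 258 with all 6 libraries, 1144 with no filter and 273 with a mean of at least 10. They ranged from 350 to 493 without a library, the lowest without DMSO replicate 2 (172 higher and 178 lower). The labels do not say what a replicate number marks. A fit with the replicate block called 9 genes with 4 libraries and 1240 at an unadjusted p under 0.05, and 0 and 346 with all 6; deviations of same-numbered DMSO and CBR libraries correlated at r = 0.42. With the numbers crossed, 44.2% of genes had the same sign in both pairs, or 43.8% with a mean of at least 10, against 60.1% there with the numbers as labelled.

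Of 105 named genes 96 had the same direction in every alternative run. When a library was left out, 9 genes took both signs: Phgdh -0.33 to 0.052 (above 0 without DMSO replicate 2), Atf4 -0.38 to 0.065 (the same), Shmt1 -0.30 to 0.97 (below 0 without DMSO replicate 2, -0.27, or CBR replicate 1), Mat2a -0.26 to 0.037 and H2afx -0.12 to 0.61 (without CBR replicate 1), Trp53 -0.13 to 0.38 (without CBR replicate 2), Kdm5b -0.18 to 0.37 (without CBR replicate 1, or DMSO replicate 1, -0.01), and Dnmt1 -0.11 to 0.24 and Btg4 -0.087 to 0.14 (without CBR replicate 2, or DMSO replicate 1). Btg4 was at -0.017 with columns rescaled, which moved the median of all genes to -0.04. The list medians kept their sign in every alternative for 14 of 41 lists; 18 were below 0, and 13 to 27 under the alternatives. The cause was not tested. Depth is known only from the value of 1 fragment, and its part in the spread between libraries was not tested.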

Other observations

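Other gene groups gave these values. Of 32 genes of pyruvate oxidation and the TCA cycle 12 were lower and 4 higher in both pairs (37.5% and 12.5%), with a median of -0.05. In both pairs 29.1% of all genes were lower and 27.1% higher. Idh3g, a subunit of NAD-dependent isocitrate dehydrogenase, had 4.82 and 4.65 with DMSO and 2.94 and 2.78 with CBR (-0.57, unadjusted p = 0.0159). Of 17 glycolytic genes 7 were higher and 4 lower in both pairs, and Pfkfb3, which makes the activator of phosphofructokinase, had 2.16 and 2.26 against 4.09 and 3.44 (0.57, unadjusted p = 0.0228). Among 22 antioxidant genes tested, 2 had an unadjusted p under 0.05, beside 4.51% of all genes. These were the peroxidase genes Gpx4 (18.6 and 21.7 against 13.8 and 15.9, a change of -0.42) and mitochondrial Prdx3 (41.2 and 41.7 against 35.1 and 33.1, a change of -0.27). Each had an adjusted p of 0.977 (limma with Benjamini-Hochberg adjustment).

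Of 42 proteasome genes 20 were lower and 11 higher in both pairs (47.6% and 26.2%, against 29.1% and 27.1% of all genes). Psmd1 had 76.2 and 81.6 against 99.2 and 95.5 (0.30), and on the opposite side Psmd10 had 77.4 and 78.3 against 62.1 and 66.3 (-0.28). Of 32 chaperones 11 were higher and 10 lower, and Tcp1, a subunit of the chaperonin of the cytosol, had 55.5 and 66.6 against 42.4 and 47.0 (-0.44). Of 181 solute carriers 44 were higher and 53 lower (24.3% and 29.3%), near the shares of all genes. The mitochondrial citrate carrier Slc25a1 had 7.30 and 6.62 against 4.04 and 4.31 (-0.62), and the GDP-fucose transporter Slc35c1 had 5.60 and 5.43 against 3.07 and 3.48 (-0.61). The F-box gene Fbxw26 had 241 and 248 against 202 and 193 (-0.31). The spindle assembly factor Tpx2 had 188 and 196 against 257 and 223 (0.32), and the Mediator subunit Med10 had 751 and 667 against 946 and 880 (0.37). Both were higher in both CBR libraries than in both DMSO libraries, as were 15.8% of all genes. Each had an adjusted p of 0.977 (limma with Benjamini-Hochberg adjustment).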
